A study of Mus musculus with 4 samples.

Results

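The genes described here are 34 markers of macrophages and other leukocytes, taken by name from the expression tables of mouse hearts that lack the microRNA miR-1. Of the 34 names, 33 were in the tables of 22552 gene rows, and 32 of these 33 reached 0.5 FPKM in at least 1 of the 4 libraries. FPKM is fragments per kilobase of transcript and 1000000 fragments, so levels of different genes in a library can be compared. The scavenger receptor Cd163 did not reach 0.5 FPKM (0.341 and 0.359 at P2.5, 0.0515 and 0.0903 at E15.5, control first). The name Spi1 was absent. A row under its older symbol Sfpi1, with the same RefSeq transcript, is given beside the members and not counted among them.

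Macrophages are phagocytes that settle in the heart before birth, from yolk sac and fetal liver precursors, and are later joined by cells from blood monocytes. They need signals through the receptor Csf1r, sense their surroundings through Fc, scavenger and pattern receptors, many of which signal through the adaptors Tyrobp and Fcer1g, and digest what they take up in lysosomes. They are also a main source of C1q, the recognition molecule of the classical complement pathway. The transcription factor PU.1, the product of Spi1, drives much of this programme.

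Whole hearts of Sv129 mice were sampled at postnatal day 2.5 (P2.5) and embryonic day 15.5 (E15.5). At each stage 1 library came from animals labelled dKO, which lack both miR-1 genes (miR-1-1 and miR-1-2), and 1 from controls labelled dHET, described as littermates for P2.5; the labels do not spell out which alleles dHET animals carry. In the E15.5 file that control is headed as wild type, so the genotype of that control is uncertain, and no source used here says how many hearts went into a library. Scaling totals recovered from the lowest values were 44600000 and 49900000 fragments for the P2.5 control and dKO libraries and 86500000 and 104000000 for those of E15.5. Groups hold 1 library each, so replicate error is unknown and every difference below is between 2 libraries. The P2.5 pair also differed in sex, by its Xist (0.101 FPKM in the control, 50.7 in dKO) and its Y-linked Ddx3y (11.7 and 0). At E15.5 both libraries held Ddx3y, at 15.3 and 14.8. Genotype and sex cannot be told apart at P2.5.

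Promoter sequence played no part in choosing the members. PU.1 binds sites with the core GAGGAA, often extended to GAGGAAGT. RefSeq promoter windows (build GRCm38.p6, 250 bases before to 50 after each start) were found for 24 of the 33 members. The word GAGGAAGT, on either strand, was in the window of 6 of these 24 genes, against 3.69% of the 27025 genes in the table. The shorter GAGGAA, which the longer word contains, was in 16 of 24, against 31.3% of genes. The 6 stretches of 60 bases around the longer word follow, because they hold the full PU.1-type word; capitals mark the word, which reads ACTTCCTC where it lies on the strand opposite to the gene.

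C1qc (chr4:136893076-136893135, minus strand): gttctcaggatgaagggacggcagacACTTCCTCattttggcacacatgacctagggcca
Cd53 (chr3:106790110-106790169, minus strand): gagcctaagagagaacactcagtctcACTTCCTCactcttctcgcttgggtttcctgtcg
Ctss (chr3:95526758-95526817, plus strand): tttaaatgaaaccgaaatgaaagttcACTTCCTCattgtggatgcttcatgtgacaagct
F13a1 (chr13:37049166-37049225, minus strand): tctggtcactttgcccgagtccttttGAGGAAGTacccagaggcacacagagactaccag
Pf4 (chr5:90772399-90772458, plus strand): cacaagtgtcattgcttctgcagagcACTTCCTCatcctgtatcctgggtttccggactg
S100a8 (chr3:90668873-90668932, plus strand): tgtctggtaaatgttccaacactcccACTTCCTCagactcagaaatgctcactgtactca

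Counted from the first base of the word, it began 2 bases before the start site in Ctss, 10 before it in Pf4, 6 after it in Cd53 and 14 after it in F13a1. In C1qc it began 195 bases upstream of the start site and in S100a8 172 bases upstream. A match of letters is a description of the window and not a measured binding site. At P2.5 all 6 genes were below 0 in dKO, from C1qc at -0.68, the only gene past 1.5-fold, to Pf4 at -0.002. So were 26 of the 31 members with at least 0.5 FPKM in either P2.5 library, and 40.1% of all such genes. Cd53 reached 0.5 FPKM there through dHET alone. At E15.5 Cd53 (0.02), Ctss (0.14), F13a1 (0.07) and Pf4 (0.26) were above 0, and C1qc (-0.07) and S100a8 (-0.84) below it.

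Most members were low. At P2.5, 31 of 33 had between 0.5 and 10 FPKM in the higher of the 2 libraries, and at E15.5 27 of 33 did. Lysozyme 2 (Lyz2), an enzyme that cuts bacterial walls, had the highest level of the members in all 4 libraries, with 12.5 FPKM in dHET against 9.72 in dKO at P2.5, then 8.33 and 9.05 at E15.5. It held 12.1% of the members' summed FPKM in P2.5 dHET and 13.6% in E15.5 dKO. Its close paralog Lyz1 can share reads with it, so its value is uncertain. In the P2.5 dHET library the next in order were C1qc, C1qb, C1qa, Pf4 and Tyrobp; in the dKO library S100a9 stood second. In the E15.5 libraries Csf1r and the 3 C1q chains followed Lyz2. These ranks are uncertain, since the error of a level in a single library is not known. The 3 C1q chains lay between 7.30 and 8.13 FPKM in P2.5 dHET. Their standard errors near 0.40 on the log2 scale belong to the ratio of dKO over dHET and not to these levels.

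**Figure D1:**
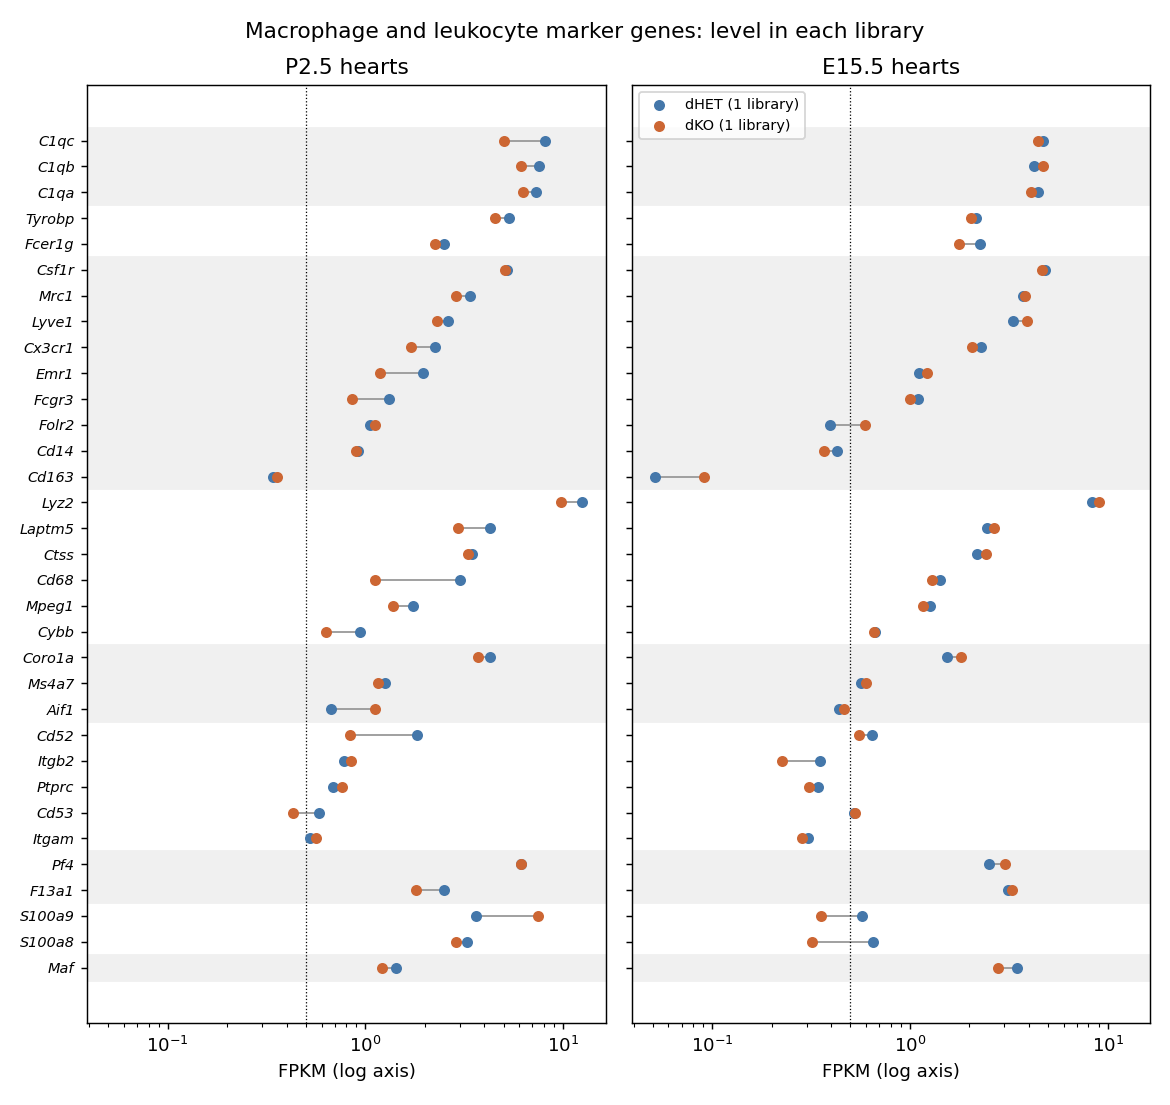
Level of the 33 marker genes in the 4 libraries (x axis, FPKM on a log scale; 1 dot per library, blue dHET, orange dKO; grey bands separate groups of genes by role; dotted line at 0.5 FPKM). Lyz2 is highest throughout, most orange dots lie left of the blue ones at P2.5, and the dots of a gene mostly lie close together at E15.5.

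At P2.5 most macrophage markers had a lower FPKM in the dKO library, by a small margin. Differences are log2 ratios of dKO over dHET, with 0.1 FPKM added to each level, for genes with at least 0.5 FPKM in either library of the stage, a scale that slightly understates the differences of low genes. Of 31 members past this filter, 26 were below 0, against 40.1% of all 12574 genes. The median difference was -0.22 for the members and 0.073 for all genes. The lysosomal glycoprotein Cd68, the lymphocyte and myeloid surface peptide Cd52, the F4/80 antigen Emr1 and C1qc were at least 1.5-fold lower in dKO (4 of 31), against 3.13% of all genes. The calgranulin S100a9 and Aif1 were at least 1.5-fold higher (2 of 31), against 6.12%. Among genes no higher than the highest member, 4.2% were lower and 6.76% higher by that fold. The summed FPKM of all 33 members was 103 in dHET and 88.5 in dKO.

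The single-gene differences were small beside their error. The authors' test of the 2 libraries implies a standard error per gene, with a median of 0.48 over the members at P2.5 (range 0.32 to 0.71), which describes 2 libraries and not animals. The difference, with 0.1 FPKM added, was larger than 1 such error in 9 of 31 members and larger than 2 in 1, Cd68. The errors belong to the authors' folds, which have nothing added. By those folds Cx3cr1 (-0.41, error 0.40), Aif1 (0.75, error 0.68) and Fcgr3 (-0.61, error 0.59) also passed 1 error. The authors' deposited table calls 0 of the 33 members significant at P2.5, 2 have p-values under 0.05, and the lowest q-value is 0.535. The members were measured in the same 2 libraries and are not replicates of each other. Rescaling both libraries to the same FPKM sum moved the median of all genes from 0.073 to -0.097 and that of the members to -0.39, so relative to all genes the members' median was -0.29 before and -0.30 after. With that rescaling 9 members were lower by 1.5-fold and 1 higher, beside 7.06% of all genes lower and 3.29% higher.

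**Figure D2:**
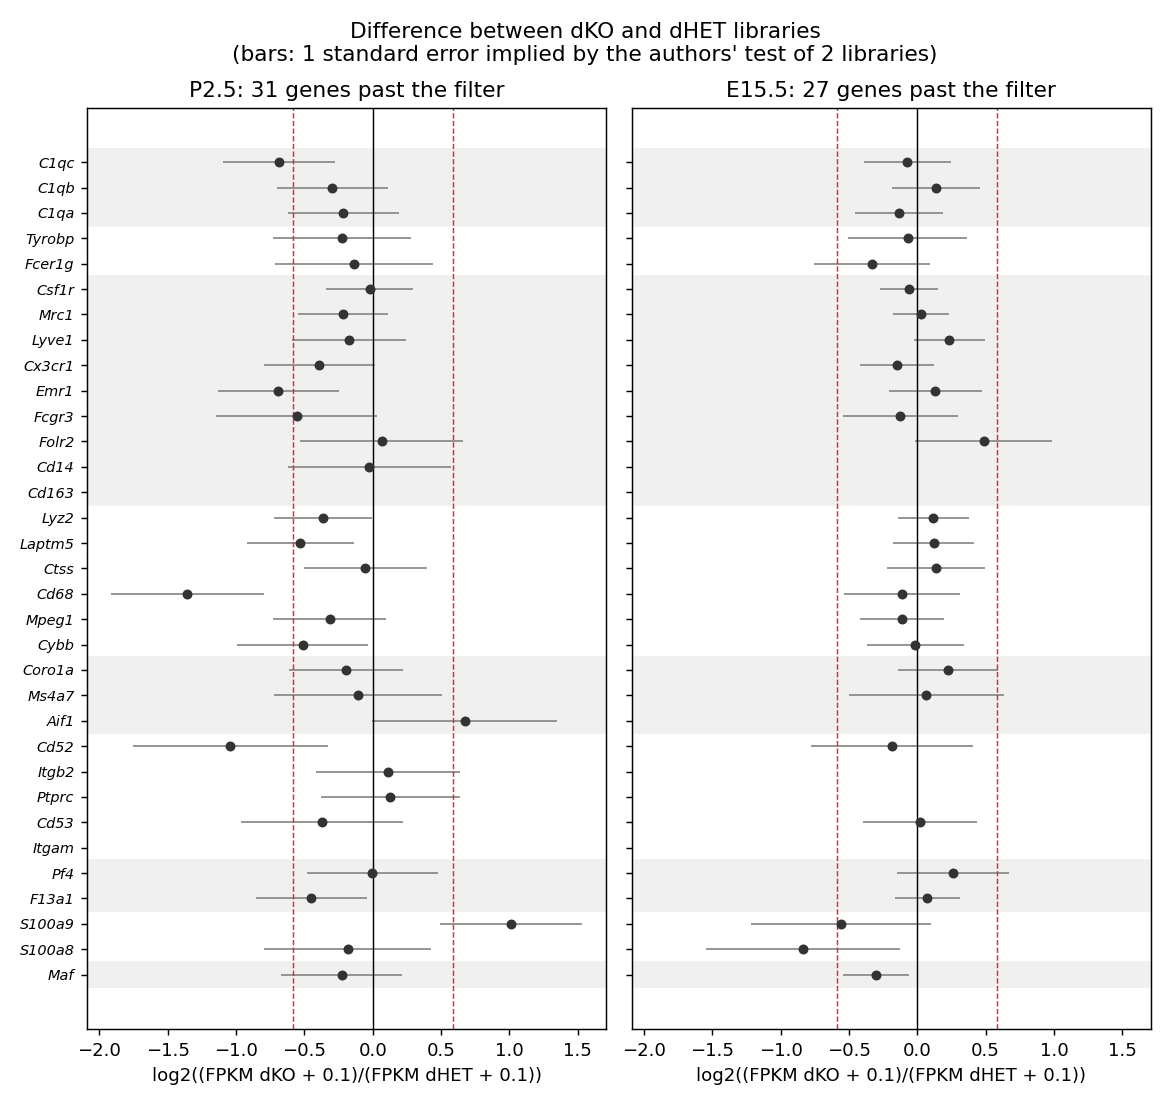
Difference between the dKO and dHET library for each member past the filter (x axis, log2 ratio with 0.1 FPKM added; bars, 1 standard error implied by the authors' test of 2 libraries; red dashed lines, 1.5-fold). At P2.5, 26 of 31 dots lie left of 0, with Cd68 and Cd52 farthest left and S100a9 farthest right; at E15.5, 14 of 27 lie left of 0.

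The C1q chains are the products of C1qa, C1qb and C1qc, neighbours within chr4:136436061-136454759 (mm9), and are joined in 1 hexameric molecule. C1qa had 7.30 FPKM in dHET against 6.28 in dKO at P2.5, then 4.47 and 4.07 at E15.5. C1qb had 7.52 and 6.12 at P2.5, then 4.26 and 4.70 at E15.5. C1qc had 8.13 and 5.02 at P2.5, then 4.69 and 4.45 at E15.5. All 3 were lower in the P2.5 dKO library, by 0.21, 0.29 and 0.68 on the log2 scale (values of -0.21, -0.29 and -0.68, standard errors 0.40, 0.41 and 0.41), and C1qc was past 1.5-fold. Their summed level in dKO was 75.9% of that in dHET at P2.5 and 98.6% at E15.5. All 3 chains lay, in the fetal libraries, between 4.07 and 4.70 FPKM.

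Tyrobp and Fcer1g encode small membrane adaptors that carry activating signals for Fc and Trem receptors. Tyrobp had 5.31 FPKM in dHET against 4.53 in dKO at P2.5 (-0.22, standard error 0.51), then 2.15 and 2.04 at E15.5. Fcer1g had 2.49 and 2.25 at P2.5 (-0.14), then 2.25 and 1.77 at E15.5 (-0.33, standard error 0.43). Both were lower in dKO at both stages by less than 1 standard error.

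Among surface receptors, Csf1r (chr18:61265226-61290793), the receptor for the growth factors Csf1 and Il34, differed least at P2.5. It had 5.18 FPKM in dHET against 5.10 in dKO at P2.5 (-0.02, standard error 0.32), then 4.83 and 4.63 at E15.5 (-0.06). About 1100 and 1200 fragments lay behind the P2.5 values, the most of any member. Emr1 (chr17:57498109-57622952), which encodes the mouse macrophage antigen F4/80, had 1.96 and 1.18 FPKM at P2.5 (-0.69, standard error 0.44), then 1.10 and 1.22 at E15.5 (0.13). Its dKO library was thus the lower at P2.5 and the slightly higher at E15.5. The fractalkine receptor Cx3cr1 had 2.26 and 1.70 at P2.5 (-0.39), then 2.28 and 2.05 at E15.5 (-0.15). The Fc receptor Fcgr3, whose sequence resembles that of other Fc receptor genes, had 1.31 and 0.859 at P2.5 (-0.56), then 1.09 and 0.995 at E15.5 (-0.12). With 0.1 FPKM added neither reached 1.5-fold; the authors' deposited table, with nothing added, gives Fcgr3 a log2 fold of -0.61 at P2.5, just past it.

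Of the other receptors, the mannose receptor Mrc1 had 3.37 FPKM in dHET against 2.89 in dKO at P2.5 (-0.22), then 3.73 and 3.80 at E15.5 (0.03). The hyaluronan receptor Lyve1, which lymphatic endothelium also makes, had 2.62 and 2.31 at P2.5 (-0.17), then 3.32 and 3.92 at E15.5 (0.23). At P2.5, 3 of 4 lymphatic endothelium genes past the filter were also below 0, as were 40.1% of all genes. They were the lymphatic regulator Prox1 at 16.4 and 13.6 FPKM, Pdpn at 2.62 and 2.10, and Reln (-0.09, standard error 0.40). Flt4 was higher in dKO (4.81 and 6.62). Whether these genes track lymphatic vessels in whole hearts was not tested. At E15.5 Lyve1 was above 0, and Prox1 (-0.27) and Pdpn (-0.30) were below it; their part in the Lyve1 value was not tested. The folate receptor Folr2 had 1.06 and 1.11 at P2.5 (0.06), then 0.393 and 0.590 at E15.5 (0.49, standard error 0.50), the largest positive difference of a member at E15.5. It passed the filter there through the dKO library alone and lies at the 1.5-fold threshold: short of it with 0.1 FPKM added, and just past it, at 0.59, in the authors' deposited table. The endotoxin co-receptor Cd14 had 0.914 and 0.897 at P2.5, then 0.425 and 0.366 at E15.5, where it did not pass the filter.

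Of 6 genes of lysosomes and phagosomes, 1 was at least 1.5-fold lower in dKO at P2.5, against 3.13% of all genes. All 6 differences were below 0, from -1.36 to -0.05, as were those of 26 of 31 members and 40.1% of all genes. Cd68 (chr11:69477873-69479564), a lysosomal membrane glycoprotein and widely used macrophage stain, had 3.003 FPKM in dHET against 1.11 in dKO at P2.5, a difference of -1.36 (standard error 0.56), the largest of any member. In the authors' deposited table its p-value is 0.0106 and its q-value 0.535. About 160 and 68 fragments lay behind the 2 values. At E15.5 Cd68 had 1.41 and 1.30 FPKM (-0.11), so its P2.5 dKO value was close to those of the fetal libraries and its P2.5 dHET value stood above the other 3, with the caution that the stages were scaled separately.

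Laptm5, a lysosomal membrane protein of blood cells, had 4.26 FPKM in dHET against 2.92 in dKO at P2.5 (-0.53, standard error 0.39), then 2.45 and 2.67 at E15.5 (0.12). Cybb (chrX:9012378-9046450), the catalytic subunit of the phagocyte NADPH oxidase, had 0.939 and 0.628 at P2.5 (-0.51), then 0.662 and 0.654 at E15.5 (-0.02). It is the member on the X chromosome, and sex differed between the P2.5 libraries. Lyz2 differed by -0.36 at P2.5 and by 0.12 at E15.5. The pore-forming protein gene Mpeg1 had 1.74 and 1.38 at P2.5 (-0.31), then 1.26 and 1.16 at E15.5 (-0.11). The protease gene Ctss (cathepsin S) was level at P2.5, with 3.44 and 3.31 FPKM (-0.05), and had 2.19 and 2.41 at E15.5 (0.14). The summed level of the 6 genes in dKO was 73.6% of dHET at P2.5 and 106% at E15.5.

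Genes of leukocyte surface proteins lay on both sides of 0 at P2.5, and Ptprc, Itgb2 and Cd53 differed by less than 1 standard error. Ptprc, the CD45 phosphatase found on all nucleated blood cells, had 0.684 FPKM in dHET against 0.757 in dKO at P2.5 (0.13, standard error 0.51), then 0.344 and 0.310 at E15.5. The integrin chain Itgb2 had 0.776 and 0.847 at P2.5 (0.11), then 0.352 and 0.225 at E15.5. Its partner Itgam had 0.522 and 0.561 at P2.5, where the authors' table marks its test as failed, so it was left out of the counts, then 0.306 and 0.286 at E15.5. All 3 were slightly above their control level in the P2.5 dKO library. The tetraspanin Cd53 had 0.584 and 0.429 at P2.5 (-0.37), then 0.520 and 0.529 at E15.5 (0.02). Cd52 had 1.83 and 0.836 at P2.5 (-1.04, standard error 0.71), from about 42 and 21 fragments, then 0.644 and 0.555 at E15.5 (-0.18).

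The actin-binding proteins went both ways. Aif1, the calcium-binding protein stained as Iba1, had 0.666 FPKM in dHET against 1.12 in dKO at P2.5 (0.67, standard error 0.68), from about 26 and 49 fragments, then 0.436 and 0.462 at E15.5. With 1 FPKM added in place of 0.1, its difference was 0.35 and no longer past 1.5-fold, and that of Emr1 was -0.44. Coro1a, an actin regulator of leukocytes, had 4.27 and 3.71 at P2.5 (-0.20), then 1.54 and 1.82 at E15.5 (0.22). The membrane protein gene Ms4a7 had 1.26 and 1.16 at P2.5 (-0.11), then 0.568 and 0.599 at E15.5 (0.07).

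Of the secreted factors, Pf4 was the member with the smallest difference at P2.5. This chemokine, made by platelets and by resident macrophages, had 6.14 FPKM in dHET against 6.13 in dKO at P2.5, then 2.50 and 3.01 at E15.5 (0.26). Platelet markers were low beside it: Ppbp had 0.104 and 0.0742 FPKM at P2.5 and Itga2b 0.391 and 0.426. The transglutaminase subunit gene F13a1 had 2.50 and 1.80 at P2.5 (-0.45, standard error 0.41), then 3.11 and 3.29 at E15.5 (0.07).

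The calgranulins S100a8 and S100a9 (chr3:90472993-90473956 and chr3:90496555-90499613) encode the subunits of calprotectin, which neutrophils hold in large amounts. S100a9 had 3.63 FPKM in dHET against 7.43 in dKO at P2.5, a difference of 1.01 (standard error 0.52; p-value of 0.0470 and q-value of 1.00 in the authors' deposited table). At E15.5 it had 0.569 and 0.355 (-0.56, standard error 0.66), the opposite direction. S100a8 had 3.26 and 2.86 at P2.5 (-0.18, standard error 0.61), then 0.649 and 0.319 at E15.5 (-0.84, standard error 0.71), from about 22 and 13 fragments. Both passed the filter at E15.5 through dHET alone, where they were the higher. Although the 2 proteins pair, only the S100a9 level was above its control at P2.5.

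Most neutrophil granule genes lay on the side of S100a9 at P2.5, and opposite to S100a8. Of 13 neutrophil genes in the table, 11 were above 0 in the P2.5 dKO library and 2 below it. Of all 22552 genes, 9565 were above 0 and 7566 below it. Another 5420 genes had no level in either library, as did 0 of the 13. The 5 past the filter were all at least 1.5-fold higher, against 6.12% of all genes. However, Lcn2, Ltf and Retnlg passed through the dKO library alone, in which they were high, so the count of 5 is not given as support. Lipocalin 2 (Lcn2) had 0.131 FPKM in dHET against 0.728 in dKO, lactoferrin (Ltf) 0.286 and 0.818, and Retnlg 0.184 and 0.527. The summed FPKM of the 13 genes was 2.72 in dHET against 5.82 in dKO at P2.5, then 1.03 and 0.676 at E15.5. The primary granule gene Mpo was at 0.00881 and 0.0630 at P2.5. The part of these cells in the S100a9 value was not tested.

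The transcription factor gene Maf had 1.43 FPKM in dHET against 1.21 in dKO at P2.5 (-0.23), then 3.46 and 2.79 at E15.5 (-0.30, standard error 0.24). It is expressed in many tissues besides macrophages. The PU.1 gene, listed as Sfpi1, had 1.62 and 1.23 at P2.5 (-0.36, standard error 0.55), then 0.868 and 0.938 at E15.5 (0.10).

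At E15.5 the members showed no common direction. Of 27 members past the filter, 14 were below 0, against 52.4% of all 12585 genes, and the median difference was -0.015 for the members and -0.0091 for all genes. S100a8 was lower by at least 1.5-fold (1 of 27) and 0 of 27 were higher, against 1.73% and 1.26% of all genes. Among genes no higher than the highest member, 2.85% were lower and 1.89% higher. The summed FPKM of the 33 members was 66.3 in dHET and 66.5 in dKO. The members' standard errors from that test had a median of 0.36. With 0.1 FPKM added, S100a8 and Maf differed by more than 1 such error. By the authors' folds, with nothing added, S100a9 (-0.68, error 0.66) and Folr2 (0.59, error 0.50) did so too. The authors' deposited table calls 0 of the 33 members significant at this stage.

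The stages were scaled separately, and P2.5 was read as single reads and E15.5 as paired reads, so their levels are only set side by side. In the control libraries 28 of 33 members had a higher FPKM at P2.5 than at E15.5; the 5 that did not were Mrc1, Lyve1, F13a1, Maf and, by a hair, Cx3cr1. In the dKO libraries 23 of 33 did. The share of all genes higher at P2.5 was not computed, so no rise of the markers can be read from these counts. Of 27 members past the filter at both stages, 13 were below 0 at both, 12 were below 0 at P2.5 and above it at E15.5, 1 the reverse and 1 above 0 at both; 0 were past 1.5-fold in the same direction at both. The difference between the stages' genotype effects was not tested, since each effect rests on 1 pair of libraries.

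Genes that work with the members were taken from lists. The growth factor Csf1, a ligand of Csf1r, had 4.38 FPKM in dHET against 4.84 in dKO at P2.5, then 3.52 and 3.70 at E15.5. The other ligand, Il34, was at 0.417 and 0.221 at P2.5 and under 0.07 at E15.5. Of growth factor and lineage genes, 0 of 8 past the filter were beyond 1.5-fold at P2.5, where 6.12% of all genes were higher and 3.13% lower. Of ITAM receptor partners and kinases, 0 of 7 were; in lists this short, counts of 0 lie near those shares. Among the 7 was the lipid receptor Trem2, at 0.45 at P2.5 and -0.53 at E15.5. Medians of both lists at P2.5 were -0.050 and 0.097, beside -0.22 for the markers; the difference between lists was not tested.

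Most other complement genes had a lower FPKM in the P2.5 dKO library, as the C1q chains did. Of the 14 complement genes in the table, 11 were below 0, against 7566 of all 22552 genes. All 10 past the filter were below 0, against 40.1% of all genes, with a median of -0.55. Of these 10, 5 were at least 1.5-fold lower, against 3.13% of all genes. The central component C3 had 11.5 FPKM in dHET against 6.74 in dKO, the protease gene C1ra 0.836 and 0.413, and the anaphylatoxin receptor C3ar1 0.730 and 0.410. C1ra and C3ar1 passed the filter through dHET alone, where they were high. So neither the counts past the filter nor the median is given as support. Most of these components are made by fibroblasts and other stromal cells as well as by macrophages. At E15.5, 1 of 6 past the filter was lower by 1.5-fold, against 1.73% of all genes. Further genes of resident macrophages were mixed, with 9 of 16 below 0 at P2.5, against 40.1% of all genes, and a median of -0.17. Of the 16, 1 was at least 1.5-fold lower, against 3.13% of all genes. It was Ms4a6b (0.718 and 0.261 FPKM), which passed the filter through dHET alone. Gpnmb of the same list, named after its values were seen, stayed under the filter (0.437 and 0.0317 FPKM) and is called significant at P2.5 in the authors' deposited table (q-value 0.00696).

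Levels of other cell types moved beside the members at P2.5. The summed FPKM of 10 heart muscle genes was 24942 in dHET and 33020 in dKO. Of the 10, 2 were at least 1.5-fold higher and 1 lower, against 6.12% and 3.13% of all genes. Troponin T (Tnnt2) was at 3314 and 5545, and the calcium pump regulator Pln at 1266 and 731. The summed FPKM of 10 blood endothelium genes was 413 and 469, and that of 10 fibroblast genes 1554 and 1581. Yet 7 of the 10 fibroblast genes were below 0, against 40.1% of all genes, with a median of -0.42. Of the 10, 3 were at least 1.5-fold lower, against 3.13% of all genes, among them Lum (44.7 and 26.7). Defining markers of lymphocytes were near 0: Cd3e had 0.125 and 0.0279 FPKM at P2.5 and Cd79a 0.152 and 0.136, and 0 of 16 lymphocyte genes passed the filter at either stage. Mast cell protease genes went both ways at P2.5, with Cpa3 at 1.76 and 1.49 FPKM and Cma1 at 2.15 and 2.81; the summed FPKM of 8 mast cell genes in dKO was 111% of dHET. In whole hearts fewer macrophages, less RNA per macrophage and more RNA from heart muscle cannot be told apart. The part of any of these in the markers' shift was not tested.

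**Figure D3:**
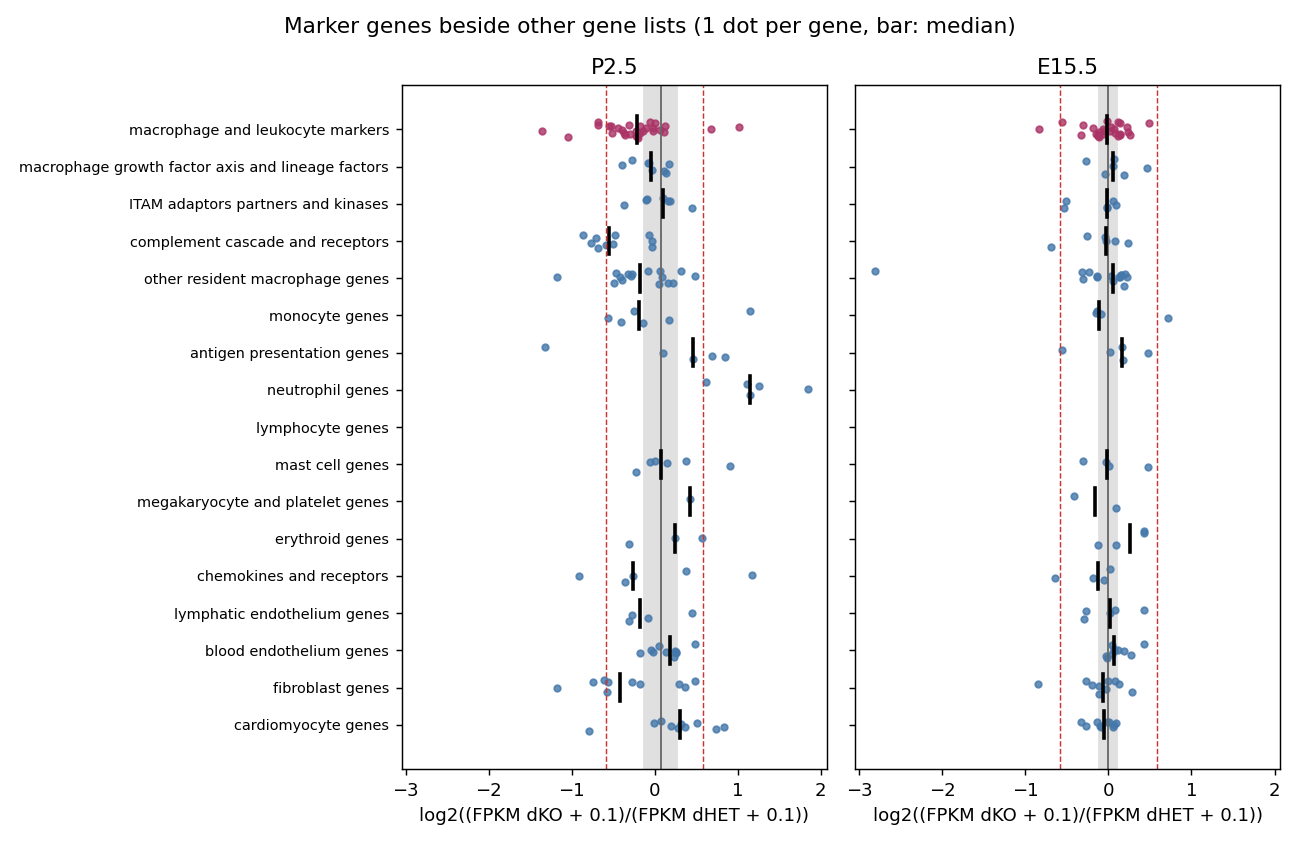
Difference between dKO and dHET for genes past the filter in each list (x axis, log2 ratio with 0.1 FPKM added; 1 dot per gene, macrophage and leukocyte markers in red; black bar, median; grey band, middle 50% of all genes with their median as a line; red dashed lines, 1.5-fold). At P2.5 the medians of the markers (-0.22), complement genes (-0.55) and fibroblast genes (-0.42) lie left of the grey band. So do those of chemokine (-0.26), monocyte (-0.19), lymphatic endothelium (-0.18) and other resident macrophage genes (-0.17). Right of it lies the median of the 5 neutrophil genes (1.14), 3 of which passed the filter through dKO alone. Antigen presentation genes (0.46), the 1 platelet gene past the filter (0.43) and heart muscle genes (0.30) also lie right of it. Among the complement genes, C1ra and C3ar1 passed the P2.5 filter through dHET alone. At E15.5 the markers' median is at -0.015.

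MicroRNAs bind messenger RNAs through a seed that pairs with matching words in the 3' UTR. In the longest annotated 3' UTR (GENCODE M1, build NCBIM37, the assembly of mm9), the word ACATTCC was in 3 of 33 members and in 9.32% of 18726 genes; the word CATTCCA, which overlaps it, was in 5 of 33 and 11.1%. These words were searched for after the values had been seen. The members' 3' UTRs were shorter, with a median of 446 bases against 920. Both words, joined as ACATTCCA, were in 2 members, Lyve1 and Ms4a7, whose sites are shown because they are the full matches among the members; capitals mark the word.

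Lyve1, base 1229 of a 3' UTR of 1565: tgtacggcatgACATTCCAtaactgatatt
Ms4a7, base 198 of 478: tccctgattccACATTCCAcaatgaccaca
Ms4a7, base 386 of 478: ttagactttacACATTCCAagaacatttga

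Neither gene was past 1.5-fold: Lyve1 differed by -0.17 at P2.5 and 0.23 at E15.5, and Ms4a7 by -0.11 and 0.07.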

How the data were processed

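Poly-A RNA was extracted with TRIzol and read as 100-base single reads at P2.5 and paired reads at E15.5, per the labels. TopHat, Bowtie and Cufflinks on mm9 were used, per the submitters' processing notes, which state no versions or settings in the sources used here. The deposited tables hold FPKM per gene and, as the authors' score columns, the log2 fold change and test statistic, with p-values and q-values of a test between 2 libraries. The 86 rows per table displaced by commas in gene names were realigned. Rows with a status of OK, NOTEST or LOWDATA were used (29 rows at P2.5 and 33 at E15.5 were left out of the counts). The E15.5 fold was turned to dKO over control.

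Computed here (Python 3.11.15, pandas 2.3.3) were log2 ratios with a pseudocount of 0.1 FPKM, for genes with at least 0.5 FPKM in either library of a stage; a call is a fold of at least 1.5, with no test, since there is 1 library per group. A standard error is the authors' log2 fold divided by their statistic, so it belongs to a fold with nothing added. Scaling totals came from single-transcript genes whose low values are multiples of 1 fragment; fragments per member are approximate. The calculation was tested on simulated data. Table starts count from 0 and are given here from 1. Members and lists were chosen with earlier results of these data known. Named genes are the members, the 3 genes with the largest absolute difference at either stage in each of 16 other lists, and fixed markers; Lyz1, Sfpi1, Xist and Ddx3y are named for context. The fixed markers Syk and Ly6g, and protein sequences, are not analysed here. The alternatives tried were another pseudocount, floor and scaling, among others given in the closing section.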

Additional observations from a re-analysis of the deposited data

How the results depend on the processing

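The members' median at P2.5 stayed below 0 under all 10 alternatives, 3 of which (GC content and length, autosomes, and a floor of 0.5 FPKM in any of the 4 libraries) were chosen after seeing the data. It moved by over 0.1 only with libraries rescaled to a sum of 1000000 (-0.39). The P2.5 counts depended on the setting. Members at least 1.5-fold lower numbered 4 as reported, 7 with median centring, 9 with rescaled sums and 1 with a floor of 5 FPKM, which left 8 members. Members higher numbered 2 as reported and 1 with a pseudocount of 1, with rescaled sums and with the floor of 5. Cd68, Cd52 and C1qc were lower under each alternative that kept them, and S100a9 was higher under all. At E15.5 the count lower went from 1 to 0 with a pseudocount of 1 or a floor of 1 or 5 FPKM, and to 2 with rescaled sums; a floor of 5 left 1 member, Lyz2, and a median of 0.12. Of single members' differences under the alternatives, 4 dropped under 1.5-fold, 10 passed it and 0 changed sign past it. No replicate could be left out and no paired analysis was possible because each group had 1 library. Differences of under about 1 standard error (0.32 to 0.71 at P2.5) are not resolved. Those past it are not resolved by that alone, since replicate error is unknown.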

Other observations

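Cbr2, a carbonyl reductase gene listed among resident macrophage genes and also known from airway epithelium, had 2.13 FPKM in dHET against 0.217 in dKO at E15.5, a difference of -2.82, and is called significant in the authors' deposited table (q-value 4.47e-07). At P2.5 it had 0.747 and 0.844 FPKM. Macrophage markers did not share this difference at E15.5.

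Genes of antigen presentation went both ways at P2.5. Of 11 in the table, 4 were above 0 and 6 below it, beside 9565 and 7566 of all 22552 genes. Past the filter 4 of 5 were above 0, and H2-Aa, which was below it, passed through dHET alone. The invariant chain gene Cd74 had 2.91 FPKM in dHET against 5.32 in dKO and H2-Eb1 had 0.712 and 1.21, whereas H2-Aa had 0.944 and 0.319. Of chemokine genes, Cx3cl1, the ligand of Cx3cr1, had 1.98 and 4.58 FPKM at P2.5, then 2.84 and 2.73 at E15.5, while Ccl2, which draws monocytes, had 2.06 and 1.04 at P2.5. Cxcl12 had 73.8 and 47.3 at E15.5. The mast cell protease gene Mcpt4 had 0.634 and 1.27 FPKM at P2.5. The monocyte gene Plac8 had 0.451 and 1.12, and passed the filter through dKO alone. The heme synthesis gene Alas2, a red cell marker, had 12.5 and 18.6 FPKM at P2.5.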
